A study of Mus musculus with 28 samples.

Results

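Acetylation of histone H3 at lysine 27 (H3K27ac) marks active promoters and enhancers, and away from promoters it is the usual sign of an enhancer in use. Brg1 is the ATPase of the BAF complexes, which use ATP to move and evict nucleosomes, and in differentiating embryonic stem cells it is best known for opening enhancers of lineage genes. Polycomb repressive complex 2, which contains Suz12, places the opposing mark H3K27me3 on silent developmental genes. The regions described here are distal H3K27ac regions that were called after induced deletion of Brg1 and not in control cultures.

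Members were chosen by the H3K27ac lists themselves. Regions of the 2 lists made after Brg1 deletion were merged where they shared 1 bp, those in both lists and over 2.5 kb from any annotated transcription start site (TSS) were kept, and a member is one that no region of either control list overlaps. The rule found 1364 members among 10785 distal regions of both deleted lists, or 12.6%. The other 9421 are called kept regions below, and 4600 of the 13914 distal regions of both control lists that neither deleted list overlaps are called lost regions. That members are acetylated with Brg1 deleted and not in control is therefore the choice and not a result, and nothing is tested on it.

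All cultures were day 4 cells that the labels assign to the mouse embryonic stem cell line Brg1f/f; Actin-CreER, in which both Brg1 alleles are floxed and a tamoxifen-activated Cre is expressed from the Actin promoter. Embryoid bodies were grown for 2 days without serum and then for 40 h with VEGF, Activin A and BMP4, which drives them toward mesoderm. On day 2 the Brg1-deleted cultures received 200 nM 4-hydroxytamoxifen (4-OHT) in tetrahydrofuran (THF), and the controls received THF alone, so that the floxed alleles and the Cre are shared by both groups. The study describes the loss of Brg1 protein during induction as gradual and names residual Brg1 activity as possible. The 4-OHT cultures were thus not without Brg1 throughout the 40 h. Each condition had 2 H3K27ac, 3 H3K27me3 and 2 Suz12 libraries. FLAG-tagged Brg1 was mapped in 3 libraries with normal Brg1 levels and no 4-OHT arm. For these the labels name the same line, while the study's methods describe stem cells with a FLAG tag on a Brg1 allele, so that the genotype behind the FLAG lists is uncertain. Each list holds the start and end of enriched regions with no height, so that a region is either called or not called and its width is the sole measure of size.

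Several properties of the lists bear on everything below. The H3K27ac lists held 37590 and 41062 regions in control and 36000 and 32161 in 4-OHT. Of the bases covered by either list of a pair, control replicate 1 shared 68.2% with control replicate 2, but also 64.2% and 67.5% with the 4-OHT replicates, whereas control replicate 2 shared 50.3% and 56.2% with them. FLAG replicates 1 and 2 held 8021 and 8257 regions and FLAG replicate 3 held 192. At least 1 H3K27ac region lay within 2.5 kb of a TSS of 9 of the 10 mesoderm markers checked (T, Mixl1, Eomes, Mesp1, Pdgfra, Gsc, Tbx6, Snai1 and Fgf8) in each of the 4 H3K27ac lists, and Kdr had none in any. Of the markers of other cell types, such a region was found in each list at 14 to 16 of 24 pluripotency genes, 7 or 8 of 18 trophoblast genes and 3 or 4 of 12 germ line genes. Counts were lower with 4-OHT for blood and endothelium (7 and 7 of 23 genes in control, 5 and 4 with 4-OHT) and for endoderm (11 and 11 of 25 in control, 9 and 7 with 4-OHT). They were higher for neural genes (4 and 4 of 33 in control, 5 and 6 with 4-OHT), and the part of such cells in the results was not tested. The promoter of Smarca4, the gene of Brg1, was called in all 4 lists, which says nothing of the deletion of its exons. The lists also cannot tell fewer acetylated cells from less acetylation per cell.

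Members of different kinds are shown first by their sequence, each as the central bases of the region (300 at most) in mm9. They are the widest members of the clusters in Sf3b3 and Chd2 described below, the widest member of all (beside Gadd45g) and the member upstream of Kdr, the gene of the mesodermal receptor Flk1. Capitals mark short consensus letters of transcription factors, among 31 sets searched on both strands.
Sf3b3, nearest gene Cog4, chr8:113355651-113355950, plus strand: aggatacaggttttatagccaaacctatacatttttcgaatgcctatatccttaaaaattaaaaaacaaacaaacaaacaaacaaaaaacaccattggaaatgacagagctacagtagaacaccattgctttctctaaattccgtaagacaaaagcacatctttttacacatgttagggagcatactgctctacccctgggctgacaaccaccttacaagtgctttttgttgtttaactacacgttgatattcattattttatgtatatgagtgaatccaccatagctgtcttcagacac
Chd2, chr7:80624276-80624575, plus strand: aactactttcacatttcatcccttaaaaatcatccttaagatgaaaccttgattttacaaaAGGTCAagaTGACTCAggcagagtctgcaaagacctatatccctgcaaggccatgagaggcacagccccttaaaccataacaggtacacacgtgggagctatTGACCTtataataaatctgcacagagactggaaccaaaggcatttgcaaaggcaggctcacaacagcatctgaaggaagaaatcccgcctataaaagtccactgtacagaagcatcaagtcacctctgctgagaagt
Gadd45g, chr13:51948676-51948975, plus strand: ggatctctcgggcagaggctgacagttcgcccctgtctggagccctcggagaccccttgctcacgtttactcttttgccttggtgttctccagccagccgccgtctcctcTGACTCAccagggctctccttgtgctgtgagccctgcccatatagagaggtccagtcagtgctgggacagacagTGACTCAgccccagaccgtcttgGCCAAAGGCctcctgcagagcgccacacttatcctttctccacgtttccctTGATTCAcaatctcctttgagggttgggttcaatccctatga
Kdr, chr5:76385951-76386225, plus strand: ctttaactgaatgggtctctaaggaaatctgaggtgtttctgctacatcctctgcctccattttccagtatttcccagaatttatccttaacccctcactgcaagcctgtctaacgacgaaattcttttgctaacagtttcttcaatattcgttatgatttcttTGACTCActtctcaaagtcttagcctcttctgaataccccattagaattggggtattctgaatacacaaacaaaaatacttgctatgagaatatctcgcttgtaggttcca

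Of these stretches, the one beside Gadd45g held 3 copies of TGANTCA, the letters bound by AP-1 (Fos and Jun proteins), and the ones in Chd2 and upstream of Kdr held 1 each. Other capitals are nuclear receptor letters (AGGTCA) in Chd2 and Tfap2 letters (GCCNNNGGC) beside Gadd45g, and the stretch in Sf3b3 held none of the 31 sets. The GC content of these stretches ran from 35.3% to 57.3%.

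Members were narrow. Their merged width had a median of 300 bp, with quartiles of 200 and 425 bp and a range of 25 to 1450 bp, against a median of 725 bp in kept and 475 bp in lost regions. The bases called in a member had a median of 250 bp in 4-OHT replicate 1 and 175 bp in replicate 2. Replicate 1 had the wider call in 874 members (64.1%) and replicate 2 in 392, and in 566 members (41.5%) at least 1 of the lists called no more than 100 bp, against 10.1% of kept regions. Although members were 12.6% of distal regions, they held 467 kb, or 4.61% of the distal bases. When regions under 500 bp were left out of both 4-OHT lists, 42 members remained by the same rule.

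**Figure D1:**
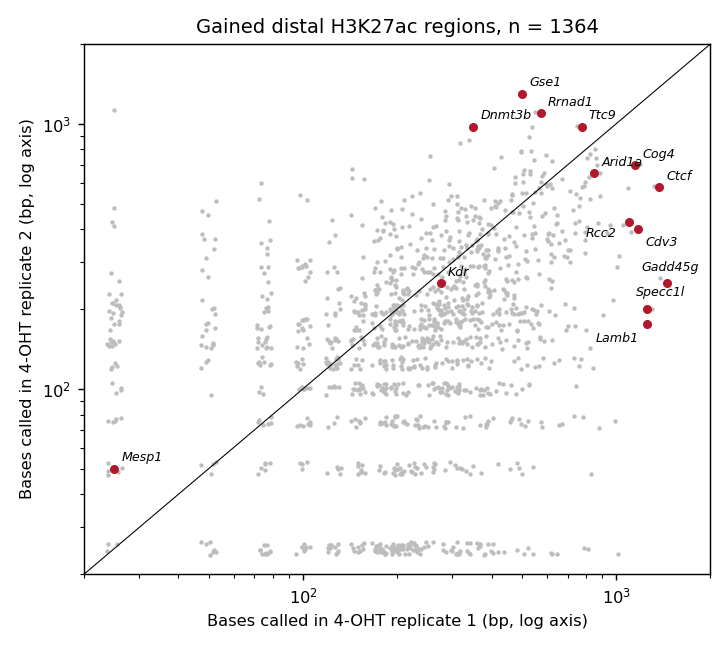
Bases called in each gained region (points, n = 1364) in 4-OHT replicate 1 and replicate 2, on log axes in bp, with a small random shift of the gray points so that equal widths can be seen. The 10 widest members and 4 members near genes of the fixed lists are in red with their nearest protein-coding gene, and the cloud reaches down to 25 bp, the step of the lists, in both replicates.

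The 10 widest members were called unevenly by the replicates. The widest, chr13:51948101-51949550, lay between genes 5.99 kb downstream of the TSS of Gadd45g, a stress-induced regulator of growth arrest, and was 1450 bp wide in 4-OHT replicate 1 and 250 bp in replicate 2. The second, chr8:108174426-108175800, lay in an intron of Ctcf, which encodes the insulator protein, with 1375 and 575 bp. The third, chr8:123098376-123099675, touched an exon of Gse1 with 500 and 1300 bp. The next were chr12:82798826-82800100, between genes 66.5 kb from Ttc9 (775 and 975 bp), chr10:74632626-74633875, in an intron of Bcr and 40.9 kb from the TSS of Specc1l (1250 and 200 bp), and chr12:31924026-31925275, 24.8 kb upstream of Lamb1, a laminin of basement membranes (1250 and 175 bp). The remaining members of the 10 were chr8:113355201-113356400 in Sf3b3, a spliceosome gene (1150 and 700 bp), chr9:103250451-103251625 in an intron of Topbp1 with Cdv3 as nearest TSS (1175 and 400 bp), chr3:87737276-87738375 in an intron of Isg20l2 with Rrnad1 as nearest TSS (575 and 1100 bp), and chr4:140262876-140263975 at an exon of Rcc2, a mitotic regulator (1100 and 425 bp). Replicate 1 had the wider call in 7 of the 10.

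Members lay in genes more often than the other classes. An intron held 647 members (47.4%) and an exon was touched by 184 (13.5%), while 533 (39.1%) were intergenic. Exons were touched by 9.2% of kept and 3.91% of lost regions. A protein-coding gene body held 809 members (59.3%), 4438 kept regions (47.1%) and 2020 lost regions (43.9%). Members were also nearer to a protein-coding TSS: the median distance was 12.9 kb, against 19.6 kb in kept and 36.6 kb in lost regions. Within 10 kb of such a TSS lay 41.3% of members (95% exact binomial interval 38.7 to 44.0), 30.2% of kept and 18.1% of lost regions. These intervals cover counting error over regions of the same 4 libraries and not the spread between cultures.

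Host genes of members were mostly active genes. Of the 809 members in a protein-coding gene, 708 (87.5%) lay in a gene whose promoter, taken as 2.5 kb to either side of its TSSs, was called in both control H3K27ac lists, against 78.9% of kept and 65.0% of lost regions. Over the 1155 distinct genes nearest to a member, 839 (72.6%) had such a promoter in both control lists and 846 (73.2%) in both 4-OHT lists, against 64.5% and 64.9% of the 4921 genes nearest to a kept region, 59.6% and 59.0% of the 2640 nearest to a lost region, and 47.7% and 48.2% of all 22225 protein-coding genes. At 6 of the 1155 genes (0.519%) the promoter itself was called in both 4-OHT lists and in neither control list, where the share over all protein-coding genes was 0.625%. The 95% exact binomial interval of the first share, 0.191 to 1.13, holds the second.

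Most genes had a single member. Of the 1155 genes, 987 were nearest to 1 member, 143 to 2 and 25 to 3 or more. Of these genes 692 (59.9%) were also nearest to a kept region and 270 (23.4%) to a lost region. A kept region lay within 50 kb of 863 members (63.3%) and a lost region within 50 kb of 256 (18.8%), while 29.1% of kept regions had a lost region that near. Il34, a cytokine gene, and Rbpms, an RNA-binding protein gene, were each nearest to 6 members, and 1810013L24Rik and Chd2 to 5 each. Of the 6 genes with 4 members, Ctbp2, a transcriptional corepressor gene, had the largest summed width.

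Joined at gaps of up to 50 kb, 388 members (28.4%) stood in 164 clusters and 976 stood alone. No cluster share of kept regions or of all distal 4-OHT regions is set beside these counts. Clustering therefore cannot be read as a trait of the members. There were 12 clusters of 4 or more members, and in 9 of them the members inside genes all lay in 1 gene. The largest, chr8:34929526-35019050, had 8 members in introns of Rbpms beside 10 kept regions, and each of the 8 lay 0 to 2.67 kb from a control region. The 4-OHT replicates called 325, 275, 325, 425, 850, 175, 250 and 150 bp of them in replicate 1 and 100, 400, 350, 100, 550, 100, 150 and 75 bp in replicate 2. The kept regions lay among the members along the gene, and no lost region fell within the cluster.

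The second cluster, chr8:113336001-113356400, held 7 members in introns and exons of Sf3b3 over 20.4 kb with no kept or lost region between them. For 6 of the 7 the nearest protein-coding TSS was that of Il34, whose promoter was called in none of the 4 H3K27ac lists, and the seventh, nearest to Cog4, is the one whose sequence is shown above. The third cluster, chr8:72434451-72483400, put 6 members in Gatad2a, a subunit of the NuRD repressor complex, with 2 kept regions. The fourth, chr16:8823601-8850600, put 5 members in and before 1810013L24Rik, and the fifth, chr3:41351426-41403950, put 5 in and before Phf17, a partner of histone acetyltransferases. Chd2, a chromatin remodeler gene, had a cluster of 5 over 96.8 kb, with 3 kept regions and no lost region. Of the 12 clusters of 4 or more, 1 had a lost region in its span, the cluster of 5 members around Kdm5b on chromosome 1, which held 2. Clusters of 3 or more numbered 34, and 10 of them were on chromosome 8.

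Chromosome 8 carried more members than its share. It had 162 of the 1364 members (11.9%) and 8.31% of the distal 4-OHT regions. Of its 896 distal 4-OHT regions 18.1% were gained (95% exact binomial interval 15.6 to 20.8), while the other chromosomes ran from 8.67% on X to 14.8% on chromosome 6. The lost share of chromosome 8 was 31.3%, inside the range of 23.9% to 37.0% over the other chromosomes. In single libraries, chromosome 8 held 7.99% and 7.38% of distal control regions and 8.28% and 8.68% of distal 4-OHT regions. Both 4-OHT lists stood above both control lists, but 4-OHT replicate 1 lay closer to control replicate 1 than the control replicates lay to each other. Of the 741 promoter regions called in both 4-OHT lists and neither control list, 5.4% were on chromosome 8. The chromosome held 8.85% to 11.4% of gained regions when any 1 of the 4 H3K27ac lists was left out. Copy number of the chromosome in these cultures was not tested, and without it 1202 members remain.

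**Figure D2:**
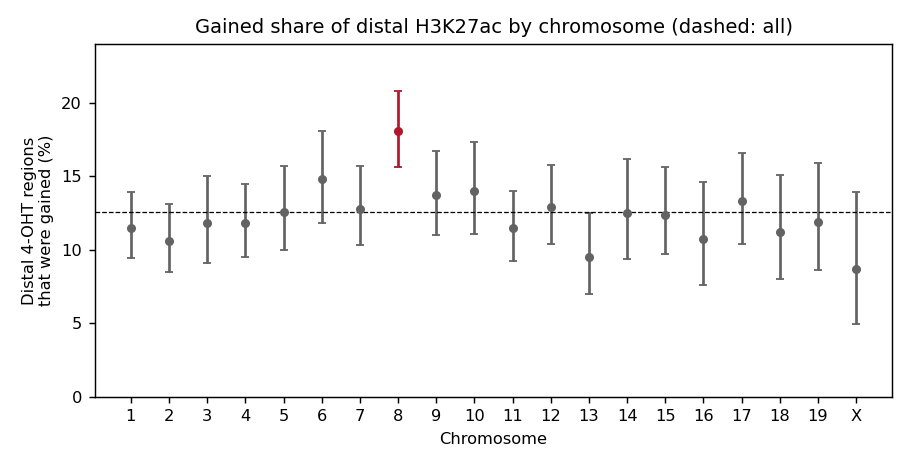
Share of the distal regions of both 4-OHT lists that were gained, in percent, by chromosome. Bars are 95% exact binomial intervals, the dashed line is the 12.6% of all 10785 regions, and chromosome 8, in red, stands highest at 18.1%.

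Many members lay beside acetylated chromatin of the control cells. The median gap to the nearest control H3K27ac region was 3.6 kb, and 319 members (23.4%) lay within 0.5 kb of one, 448 (32.8%) within 1 kb and 751 (55.1%) within 5 kb. Lost regions lay farther from the nearest 4-OHT region, with a median of 18.2 kb and 11.6% within 1 kb. A control region touched 20 members edge to edge, and 164 kept regions were kept out of the members by a control overlap of at most 25 bp. At the other extreme, 161 members (11.8%) lay over 50 kb from any control region. At the TSS limit, the nearest member lay 2504 bp from a TSS and the farthest excluded region 2484 bp.

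Genes of development were nearest to a smaller share of members than of kept or lost regions. Over 10 lists of pluripotency, germ layer, germ line and Hox genes (244 genes), a list gene was the nearest gene of 17 members (1.25%, 95% exact binomial interval 0.728 to 1.99), against 2.40% of kept and 3.15% of lost regions. The annotation holds 22225 protein-coding genes, so by number of genes alone the share of members was not low. A depletion of members at these genes was not tested. The lists were drawn up with results of these data known. Hox, blood and endothelium, trophoblast and germ line genes had none.

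Among primitive streak and mesoderm genes, 4 of 34 had a member (0.293% of members, 0.637% of kept, 0.913% of lost), while 20 of the 34 were nearest to a kept and 14 to a lost region. The member nearest to Kdr, the receptor of VEGF on mesoderm and endothelium, was chr5:76385951-76386225, 11.5 kb upstream, with 275 bp in 4-OHT replicate 1 and 250 bp in replicate 2. This was 11.4 kb from the nearest control region, and 5 lost and 0 kept regions had Kdr as nearest gene. The rule itself sets which of these calls are gained or lost, and a change at the locus was not tested. Mesp1, the transcription factor at the head of cardiac mesoderm, had a member of 50 bp (25 and 50 bp) 0.5 kb from a control region. Gsc, an organizer homeobox gene, had one of 225 bp and Snai2, which drives epithelial-mesenchymal transition, one of 250 bp, 0.45 and 0.4 kb from a control region. The Gsc member lay 30.3 kb from its TSS. That of Snai2 lay 94.7 kb from its TSS and 6.51 kb from the nearest TSS of any transcript. Apart from that of Kdr, these members lay within 0.5 kb of acetylation already called in control.

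Epiblast and pluripotency genes had members as well, at shares below those of the other classes. Epiblast genes were nearest to 0.22% of members, 0.34% of kept and 0.391% of lost regions, and pluripotency genes to 0.147%, 0.329% and 0.391%. Dnmt3b, the de novo DNA methyltransferase of the epiblast, had one of 975 bp in an intron (350 and 975 bp), Epcam, an epithelial adhesion gene, had one of 725 bp (725 and 200 bp), and the TGF-beta ligand gene Nodal had one of 100 bp at an exon. Klf5 had 2 members of 350 and 200 bp, 34.6 and 35.2 kb downstream of its TSS. The neural genes Sox11, Pax2, Nes and Olig3 had 1 each of 250 to 450 bp, 14.1 to 108 kb from their TSSs (0.293% of members, 0.234% of kept, 0.37% of lost). The endoderm genes Lamb1, Dab2 and Cubn had 1 each, 24.8, 240 and 41.7 kb from their TSSs (0.22% of members, 0.467% of kept, 0.543% of lost). Myog was the only heart or muscle gene, with 275 bp at 53.8 kb from any control region (0.0733% of members, 0.138% of kept, 0.087% of lost).

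Signaling genes that were nearest to a member included ligands, receptors, a transducer and inhibitors. In the TGF-beta list, members lay nearest to the ligand Tgfb2 and the receptor Tgfbr2 (2 members), and to the transducer Smad3 and the inhibitory Smad6, with widths of 175 to 275 bp. The Tgfbr2 members lay 184 and 185 kb from its TSS and the Smad6 member 89.2 kb. The Tgfb2 member lay 16.5 kb away in an intron of Rrp15. The Smad3 member, 8.35 kb upstream of the nearest TSS and in its intron, was 71.7 kb from any control region. Chrd, an extracellular BMP inhibitor, and Nodal made up the 7 members of that list, 0.513% of members against 0.658% of kept and 0.978% of lost regions. In the Wnt list, members lay nearest to the ligands Wnt9a and Wnt2 and the receptors Fzd4 and Lrp6 (0.293% of members, 0.626% of kept, 1.07% of lost). Their distances to these TSSs were 18.5, 52.9, 19 and 20.5 kb. The Wnt9a member, chr11:59138926-59139350, lay in an intron 15.9 kb from any control region and was called over 350 and 400 bp. Wnt9a was the sole member-bearing gene of 13 in a list that the study chose on these cultures for raised expression, so it is not independent evidence of direction. That list had 0.0733% of members, 0.127% of kept and 0.0652% of lost regions, and 7 of its genes were nearest to a kept region. Kdr and Mesp1 were 2 of 6 in the corresponding list of lowered genes (0.147% of members, 0.159% of kept, 0.413% of lost), of which 4 were nearest to a kept and 4 to a lost region. In the FGF list, the receptor genes Fgfr2 and Fgfr4 had 1 member each (0.147% of members, 0.584% of kept, 0.522% of lost).

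Members also lay near stress and chromatin genes, at shares of the same order as those of the kept regions. In the stress list, members lay nearest to Gadd45g, Mdm2, Sesn2 and Ccng1 (0.293% of members, 0.393% of kept, 0.152% of lost), of which Mdm2, Sesn2 and Ccng1 are known targets of p53. The Mdm2 member was called over 300 and 600 bp, the Sesn2 member over 600 and 75 bp and the Ccng1 member over 75 and 325 bp. Of 27 BAF subunit genes, 5 had a member (0.367% of members, 0.350% of kept, 0.196% of lost), namely Arid1a, Bcl11a, Bcl7c, Smarcc1 and Arid2. The Arid1a member, in an intron 8.43 kb from any control region, was 1000 bp wide with 850 and 650 bp in the replicates. Rbbp4, shared by PRC2 and other chromatin complexes, had 2, and among cytoskeleton and adhesion genes Itgb1 and Actg1 had 1 each.

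No member was overlapped by Brg1-FLAG. The question here was whether newly acetylated regions had been bound by Brg1 in cells with normal Brg1. FLAG regions overlapped 0 of 1364 members in each of the 3 replicates, which allows a share of up to 0.22% when 3 regions are taken as the limit of a count of 0, and of up to 0.27% by the 95% exact binomial interval. These limits cover counting over regions and not binding that the lists missed. The FLAG lists covered 0.025 to 1.34 Mb, and the study calls its FLAG enrichment modest and its bound regions conservative. A count of 0 therefore does not show that Brg1 was absent from members. As background, 15.5% of all distal 4-OHT regions were overlapped in any FLAG replicate and 7.32% in at least 2 of 3. The overlap was 17.7% in kept and 21.9% in lost regions. In each class of width the members stood at 0, while kept regions ran from 7.84% (200 bp or less, 485 regions) to 16.1% (625 to 1500 bp, 3493 regions). The nearest FLAG region lay 150 bp from a member, 19 members (1.39%) had one within 1 kb and 102 (7.48%) within 5 kb.

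Low FLAG overlap was also found in regions that were not gained. Distal regions of both 4-OHT lists that control replicate 1 also called, but not control replicate 2, had a FLAG overlap of 0.783% (12 of 1532). Those called in control replicate 2 but not 1 had 4.43% (12 of 271), and those called in both had 21.6% (1647 of 7618). Regions called in control replicate 1 and in no other H3K27ac list had 1.35%, and those in control replicate 2 alone had 8.04%. FLAG overlap therefore moved with the call in both control lists, control replicate 2 above all, and a low overlap was not particular to the members. Without control replicate 1 the rule gave 2896 regions, 0.414% of them overlapped by any FLAG list, and without control replicate 2 it gave 1635 with 0.734%. At promoters of the genes nearest to members, 24.9% had a FLAG region, against 25.3% for kept and 27.4% for lost regions and 13.7% of all protein-coding genes.

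**Figure D3:**
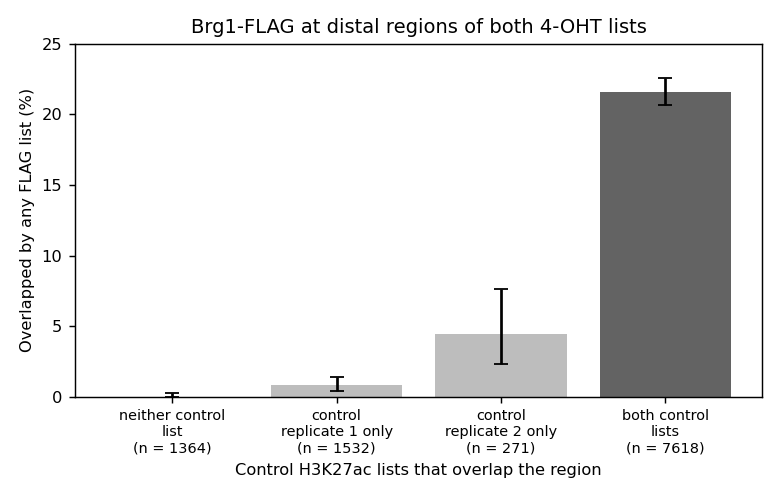
Percent of the distal regions of both 4-OHT H3K27ac lists that a region of any FLAG replicate overlaps, split by which control H3K27ac lists also call them. Error bars are 95% exact binomial intervals, and the share runs from 0 where no control list calls the region to 21.6% where both do.

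Polycomb marks were nearly absent from members. H3K27me3 regions overlapped 1, 4 and 2 of the 1364 members in the control replicates and 0, 2 and 0 in the 4-OHT replicates. The control mean of 0.171% ± 0.112 (SD, n = 3) compared with 0.0489% ± 0.0847 (SD, n = 3) after 4-OHT, a difference of -0.122 percentage points (two-sided exact permutation test, p = 0.3, with 0.1 the smallest p of 3 against 3). Kept regions had 0.340% ± 0.0463 and 0.205% ± 0.0640, and the change in members minus that in kept regions was 0.0123 percentage points (exact permutation p = 0.8). In at least 2 of 3 control replicates 2 members were overlapped (0.147%), beside 0.287% of all distal 4-OHT regions, and in at least 2 of 3 4-OHT replicates 0 were, beside 0.167%. Same-numbered replicates paired 1 with 0, 4 with 2 and 2 with 0 members, lower with 4-OHT in each of the 3 pairs. The exact sign-flip test of these pairs gave p = 0.25, the smallest that 3 pairs allow, so that neither test could have passed 0.05, and the shares rest on a handful of regions.

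Suz12 regions overlapped 2 and 2 members in control and 3 and 4 with 4-OHT. The mean share went from 0.147% (SD 0, n = 2) to 0.257% ± 0.0518 (SD, n = 2), and the exact permutation p of 0.333 is the smallest that 2 against 2 can give. Suz12 overlapped 2 members in both control lists (0.147%, beside 0.121% of all distal 4-OHT regions) and 3 in both 4-OHT lists (0.22%, beside 0.195%). In kept regions the mean Suz12 share went from 0.154% to 0.271%. The shares in members are near those of the distal 4-OHT regions as a whole.

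The 6 members that any Polycomb list touched can be named. The one nearest to Cbx8, chr11:118917926-118918125 (200 and 75 bp), and the one nearest to Ppara, chr15:85500976-85501125 (150 and 50 bp), were each overlapped in 7 lists: H3K27me3 in control replicates 2 and 3 and 4-OHT replicate 2, and Suz12 in all 4. Cbx8 encodes a Polycomb protein and its own promoter carried both marks in control. The member nearest to Mrps33 was overlapped by H3K27me3 in control replicate 2 and by Suz12 in both 4-OHT lists. Those near Gng7, Gm10073 and Prdm8 were overlapped in 1 list each. At promoters of the genes nearest to members, H3K27me3 was called in at least 2 of 3 control lists for 14.3%, close to the 14.1% of all protein-coding genes and below the 18.9% for kept and 25% for lost regions.

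In base composition, the central 500 bp of members were poorer in GC than those of kept regions. Their median GC content was 45.8% in members, 47.6% in kept and 47.2% in lost regions, with a mean of 5.9, 7.57 and 5.82 CpG dinucleotides. The merged width of members had an upper quartile of 425 bp, so for most of them GC and letters include flanking bases. Kept regions, with a median width of 725 bp, more often fill the 500 bp. Of the 31 sets of letters, the one of p53, ACATGTC, had the highest ratio of its share in members to that in kept (1.85) and in lost regions (2.38), with 11.3% of members, 6.11% of kept, 4.74% of lost and 6.77% of all distal 4-OHT regions holding it. The classes most like the members came close to them: ACATGTC was held by 9.61% of the regions of both 4-OHT lists and control replicate 1 alone and by 9.84% of those of both 4-OHT lists and control replicate 2 alone, against 5.32% of those in all 4 lists. AP-1 letters were held by 27.2% of members and 26.1% of kept but 15.5% of lost regions, and the CAGGTG letters of Snai factors by 37.2%, 33.8% and 25.6%. Below kept and lost regions stood the octamer of Pou5f1, ATTTGCAT (1.32%, 3.6% and 3.85%), the Foxh1 letters AATCCACA (1.83%, 2.92% and 4.11%) and the Sp letters GGGGCGGGG (0.88%, 3.82% and 2.02%). Regions of both 4-OHT lists and control replicate 1 alone were near members for Foxh1 (2.22%) and Snai letters (37.1%). They held the octamer in 2.48%. With control replicate 2 alone instead, the shares were 3.54% for Foxh1, 31.9% for Snai and 3.94% for the octamer. GATA letters AGATAAG were in 6.16%, 7.68% and 8.43%, and T-box letters AGGTGTGA differed little, at 3.01%, 2.70% and 3.17%. Among regions of 40 to 50% GC the p53 letters were in 12.3%, 7.10% and 5.10%. None of the members nearest to Mdm2, Ccng1, Sesn2 and Gadd45g held the p53 letters in their central 500 bp. The Gadd45g member was 1450 bp wide and those of Mdm2 and Sesn2 600 bp, so their outer bases were not searched. These shares describe the letters alone and are given with no test, since the same lists chose the regions.

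**Figure D4:**
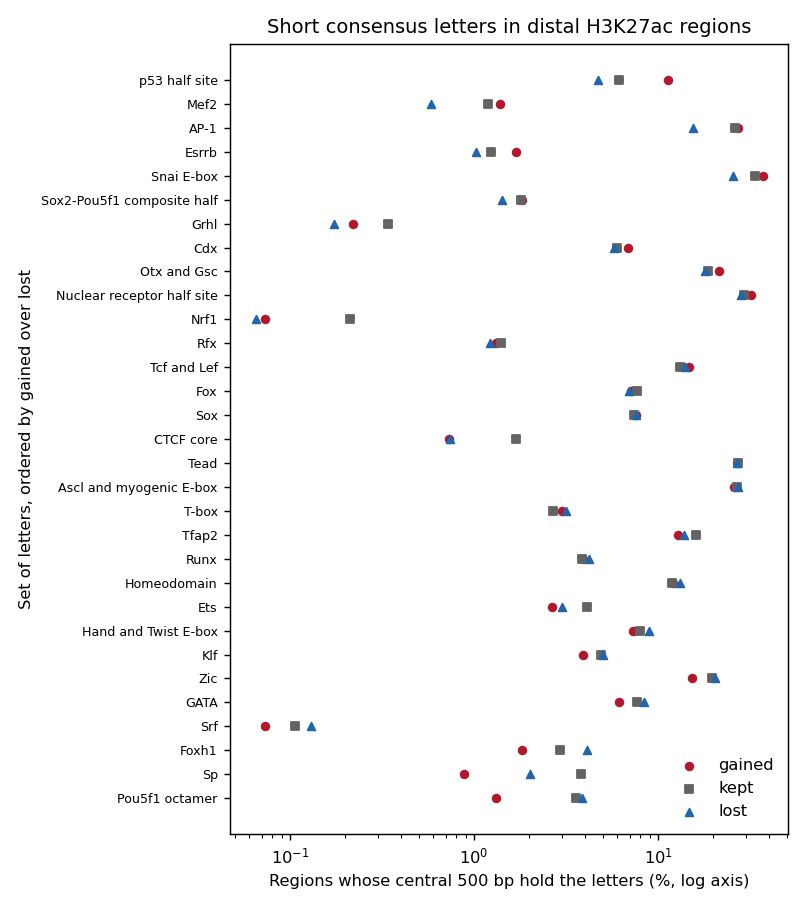
Percent of gained (n = 1364), kept (n = 9421) and lost (n = 4600) distal regions whose central 500 bp hold each of 31 sets of consensus letters on either strand, on a log axis, ordered by the ratio of gained to lost. The p53 letters are at the top, with 11.3% of gained and 4.74% of lost regions, and the Pou5f1 octamer is at the bottom.

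A longer stretch of sequence recurred in or beside members. No repeat annotation was used here, so it was not matched to a repeat family. The 16 letters shared by the most members, simple repeats aside, were ATAGCCCAAAGAGTTG, and 71 words of 16 letters occurred in at least 50% of the members that held them. At least 10 of these words were found in the central 500 bp of 61 members (4.47%), 126 kept regions (1.34%) and 2 lost regions (0.0435%). Those 500 bp reach past the edges of most members, whose upper quartile of width was 425 bp. The words can therefore lie beside a call and not in it. The words were picked from the members after their sequences had been seen, which favors members in this count. The 61 lay on 19 chromosomes, 51 of them between genes and 60 over 1 kb from any control region, with a median gap to control of 15.7 kb and a median width of 250 bp. Of the members as a whole 39.1% were intergenic, and the 61 were nearest to 60 different genes. The 2 widest whose central 300 bases hold the 16 letters are printed with the shared words in capitals, both read in the direction of the 16 letters.
Dctd, chr8:49190726-49191025, minus strand: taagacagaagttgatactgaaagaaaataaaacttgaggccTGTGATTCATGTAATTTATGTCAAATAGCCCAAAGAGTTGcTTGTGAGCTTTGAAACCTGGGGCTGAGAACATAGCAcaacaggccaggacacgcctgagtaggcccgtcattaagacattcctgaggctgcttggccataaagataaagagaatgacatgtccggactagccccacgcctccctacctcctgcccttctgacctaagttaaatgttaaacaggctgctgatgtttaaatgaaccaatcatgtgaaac
Megf11, chr9:64228501-64228800, minus strand: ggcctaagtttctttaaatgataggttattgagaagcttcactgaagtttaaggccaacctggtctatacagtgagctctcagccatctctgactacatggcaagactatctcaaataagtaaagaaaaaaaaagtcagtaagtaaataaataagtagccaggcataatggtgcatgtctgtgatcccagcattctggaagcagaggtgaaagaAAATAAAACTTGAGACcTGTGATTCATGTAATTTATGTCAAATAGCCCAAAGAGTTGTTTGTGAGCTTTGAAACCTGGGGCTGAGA

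The member in Dctd, an intron region 2.25 kb from a control region, was called over 550 and 200 bp in the 4-OHT replicates. The Megf11 member was called over 300 and 350 bp, 16.4 kb from a control region. Of the 61 members, 21 (34.4%) held the p53 letters, and outside them the p53 letters were still in 10.2% of members, 5.82% of kept and 4.74% of lost regions.

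Over the whole genome the 16 letters occurred at 817 places, of which 55 lay within 250 bp of a member, where the rule itself asks for a call with 4-OHT and none in control. An H3K27ac region lay within 250 bp of 204 (25%) and 163 (20%) of them in the control replicates and of 310 (37.9%) and 294 (36%) in the 4-OHT replicates. Over the 762 copies away from members, the shares were 26.8% and 21.4% in control and 33.6% and 31.5% with 4-OHT, so that the gap between conditions was smaller without the members and about as wide between 4-OHT replicate 2 and control replicate 1 as between the control replicates. These shares are a description, since the same lists chose the letters. The copies that an H3K27ac region overlapped numbered 63 and 49 in control and 109 and 89 with 4-OHT. Of those with 4-OHT, 99 and 85 were among the 762 copies away from members. Few of the copies near members therefore lay inside called bases. No FLAG, H3K27me3 or Suz12 list had a region over any of the 817 copies. These lists covered little of the genome: 0.025 to 1.34 Mb for FLAG, 3.58 to 4.77 Mb for Suz12 and 4.74 to 11 Mb for H3K27me3. The H3K27ac lists covered 26.1 to 30.8 Mb, so a count of 0 in the others says little of the copies. By the lists that call them, 2.48% of distal regions in both 4-OHT lists and control replicate 1 alone held the stretch, 3.32% of those with control replicate 2 alone, and 1.04% of those with both control lists. How the aligner placed reads that match several copies is not given in the sources used here, and its part in these counts was not tested.

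**Figure D5:**
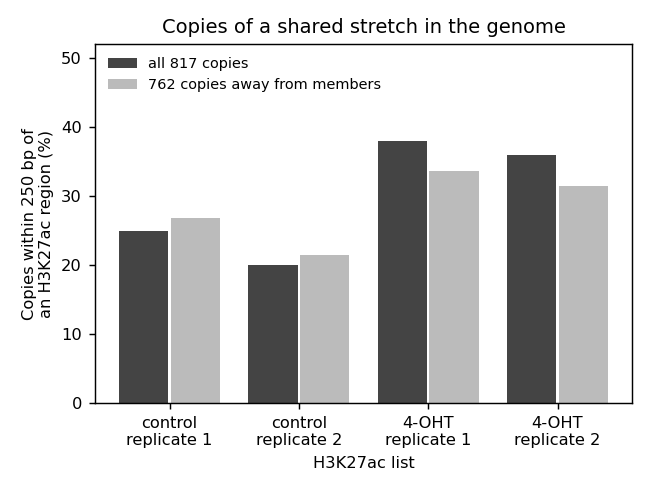
Percent of the genomic copies of the shared 16 letters that lie within 250 bp of an H3K27ac region, for each control and 4-OHT replicate, over all 817 copies (dark bars) and over the 762 copies away from members (light bars). Over all copies the control replicates stand at 25% and 20% and the 4-OHT replicates at 37.9% and 36%, and away from members at 26.8%, 21.4%, 33.6% and 31.5%.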

How the data were processed

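ChIP-seq reads of day 4 cultures were aligned by the authors with Bowtie to mm9, and regions enriched over input were called in each replicate separately. The deposited lists give start and end alone, with edges in steps of 25 bp, at a caller threshold of 1e-12 for H3K27ac, H3K27me3 and Suz12 and 1e-06 for FLAG. Read depth is unknown, so the number of regions per list limits precision. The 11 input samples were not used here.

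Members, gene lists and letters were chosen with earlier results of these data known, and the shared 16-letter stretch after the sequences were seen. Intervals were handled in Python 3.11 with NumPy and SciPy, and the functions were tested on simulated lists. TSSs (86842) and genes came from GENCODE vM1 on the same build. The models Gm20388 and Fgfr2, which span 4.43 and 3.01 Mb, were left out of gene bodies. Of 479 list genes, 2 had no match. An exon call needs 1 bp. Named regions were the 10 widest, the 5 largest clusters, the 5 genes with most members, members marked by FLAG or Polycomb lists, and genes of fixed lists, up to 4 each by member width. Arid2, Chrd, Kdm5b, Gng7, Gm10073, Prdm8, the host genes and the 2 regions printed for the shared stretch were named after their values were seen.

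Conditions were compared by two-sided exact permutation tests over libraries, with same-numbered replicates as pairs in the alternative. Deviations from the group mean correlated between same-numbered replicates at 0.21 for H3K27ac, 0.193 to 0.412 for H3K27me3 and 0.0149 for Suz12, so that the H3K27me3 numbers were read as pairs. Replicates are biological per the labels. Some sequences are not reported here.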

Additional observations from a re-analysis of the deposited data

How the results depend on the processing

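The number of members stayed between 916 and 1781 when the TSS distance was 1 or 5 kb, with protein-coding TSSs alone, with merging or a control gap of 1 kb, with lists cut to equal length, and without chromosome 8 (an alternative chosen after seeing the data). It was 2889 when control regions had to cover under 50% of a region, 8797 when 1 of the 4-OHT lists sufficed, and 42 with regions of 500 bp or wider. Leaving out 1 H3K27ac replicate gave 1635 to 6982 regions, with 2896 without control replicate 1, 3864 without 4-OHT replicate 1 and 6982 without 4-OHT replicate 2. A rule with fewer lists asks less of a region by construction, and other causes were not tested.

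As single H3K27ac lists were left out, 0.0143% to 0.306% of gained regions had Brg1-FLAG in at least 2 of 3 replicates. The highest share was without control replicate 2. Leaving out a FLAG list had to give 0, since no FLAG list overlapped a member, so it says nothing of stability. A region of any FLAG replicate within 1 kb was found at 1.39%. The median gap to control regions was 1.23 to 7.94 kb as H3K27ac lists were left out, the highest without control replicate 1 and the lowest without 4-OHT replicate 1. These H3K27ac leave-outs for marks and gaps, and the 1 kb margin for any FLAG replicate, were chosen after seeing the data.

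The H3K27me3 change in members stayed negative and the Suz12 change positive in every alternative run. Kept regions changed alike in the main setting, by -0.134 and 0.117 percentage points, so these signs are not particular to members. The lists themselves held 8798 to 16959 H3K27me3 regions in control and 6787 to 10394 with 4-OHT. Suz12 lists held 2913 and 2951 regions in control and 3654 and 4016 with 4-OHT. The H3K27me3 change in members minus kept regions, 0.0123 percentage points, turned to -0.017 for overlaps of at least 50% and to -0.0475 for members over 1 kb from control regions, and ran from -0.133 to 0.0846 with libraries left out. It was -0.0472 without H3K27me3 control replicate 1, -0.00654 without H3K27me3 4-OHT replicate 2, -0.133 without H3K27ac control replicate 1 and -0.00239 without H3K27ac 4-OHT replicate 2. With the replicate block (sign-flip test of paired replicates) the exact p was 0.25 for the H3K27me3 change of -0.122, 1 for the difference of 0.0123 and 0.5 for the Suz12 change of 0.11. The smallest p of such a test is 0.25 with 3 pairs and 0.5 with 2, so it could make no call and says nothing of stability.

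Clusters joined at 20 or 100 kb held 289 or 507 members. The p53 letters were in 10.2% of members without the shared stretch and 12.3% of those of 40 to 50% GC, both chosen after seeing the data. The lists carry no read depth, so a region missing from a list cannot be told from one just under its threshold.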
